A study of Mus musculus with 24 samples.

Results

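The 34 genes described here cover glycolysis, lactate export and the hypoxia pathway in cultured dendritic cells of the mouse. They were listed by symbol for their function, with earlier results of these data known, out of 20284 named genes with a probe on the array. The list holds 2 glucose transporters, 18 enzymes and regulators from hexokinase to pyruvate kinase, 4 genes of lactate formation and transport, 5 genes of the pyruvate dehydrogenase step, and Hif1a with 4 genes of its pathway. All 34 had a probe, with 54 probes in all, and 33 passed the filter on dim probes. The exception was Pdk4, a pyruvate dehydrogenase kinase, which was well above background on 1 of 24 arrays and was not tested. The other genes were well above background on all 24 arrays, apart from Egln3 (22 arrays), Pdk2 (13) and Egln1 (12).

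Glycolysis turns glucose into pyruvate in the cytosol, and cells stimulated through Toll-like receptors are known to run it faster and to export lactate. Most steps are encoded by several isozyme genes that differ in tissue pattern and regulation. HIF-1, whose oxygen-sensitive subunit is encoded by Hif1a, is known to raise transcription of glucose transporters, glycolytic enzymes, the lactate exporter Slc16a3 and kinases that hold back pyruvate dehydrogenase, while the prolyl hydroxylases Egln1 and Egln3 mark this subunit for degradation.

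RNA of each sample was labelled with Cy3 and read on an Agilent whole-genome array. Bone marrow cells on a C57BL/6 background were grown for 9 days with human Flt3 ligand at 100 ng/ml, which is known to produce dendritic cells of both the plasmacytoid and the conventional kind. The genotypes were DKO (lacking Lyn and Irf5), Lyn-KO (lacking the Src-family tyrosine kinase Lyn), Irf5-KO (lacking Irf5, which encodes an interferon regulatory factor used by Toll-like receptors) and WT. Cells of each genotype received CpG-B, a synthetic DNA that engages Toll-like receptor 9 (dose 150 nM, duration 6 h), or were left unstimulated, which made 8 groups of 3 arrays. The age of the animals and the number of animals behind a sample do not appear in the labels. Nor do the labels say whether the 3 arrays of a group came from separate animals or cultures, so p-values measure the spread between these arrays. Levels are log2 signals minus the 75th percentile of the array, and changes are log2 differences of levels ± the standard error from limma, always with 3 arrays in each group. Levels are compared between groups for 1 gene at a time, since probes of different genes share no scale.

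The share of spots well above background ranged over the arrays from 41.0% to 53.8%, none was saturated, and replicate arrays correlated at 0.991 to 0.996 across features. The level of Lyn lay between -1.12 and -0.23 on DKO and Lyn-KO arrays, against 0.75 to 2.29 on Irf5-KO and WT arrays. With CpG-B the only Irf5 probe was higher on Irf5-KO than on WT arrays (0.64 ± 0.09) and on DKO than on Lyn-KO arrays (0.76 ± 0.09). Without CpG-B it had lower levels on the arrays labelled as lacking Irf5, with 4.52 to 4.55 on DKO, against 4.79 to 4.86 on Lyn-KO arrays, and 4.39 to 4.49 on Irf5-KO, against 4.67 to 4.79 on WT arrays. Its place relative to the deletion is not stated, so it checks nothing, and Irf5-KO and DKO mean the arrays labelled so. Of 8 dendritic cell markers, each group had at least 7 that stood well above background in all its replicates. The summed level of 10 B lineage markers, as a linear ratio to the 75th percentile of the array, differed between genotypes. With CpG-B it was 16.0 to 17.5 in DKO, 24.0 to 25.5 in Lyn-KO, 99.1 to 128 in Irf5-KO and 68.9 to 91.7 in WT cells, and without CpG-B it was 10.02 to 15.8, 10.96 to 11.6, 126 to 161 and 81.1 to 124 in the same order of genotypes. The marker Cd79a was not well above background on any array of 3 of the 4 groups lacking Lyn, and Pax5 on none of the unstimulated ones. The summed level of 9 neutrophil markers was 22.97 to 68.0 over the CpG-B arrays, against 42.5 to 122 over the unstimulated arrays, and that of 7 macrophage markers 20.4 to 38.9, against 10.2 to 24.6. Of 6 T and NK markers, each group had 2 or 3 that stood well above background in all its replicates, while Klrb1c did on no array. Of 5 erythroid markers with a probe, each group had 0 or 1 that did so in all its replicates, and Klf1 did on no array. The part of these cell types in the results below was not tested.

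Hk2 (hexokinase 2) and Pfkfb3 (which makes the activator of phosphofructokinase) rose with CpG-B. Ldha (lactate dehydrogenase A) and Slc16a3 (the lactate exporter MCT4) fell. Promoter windows are shown for these 4 genes, which were not the 4 of largest change. Each is the RefSeq window from 250 bases before to 50 bases after a start on GRCm38.p6, 5′ to 3′ on the strand of the gene. Capitals mark ACGTG on either strand, the core of the hypoxia response element, and matches on the 2 strands overlap where they form CACGTG. The Hk2 window is chr6:82774405-82774704 (minus strand), the Pfkfb3 window chr2:11553880-11554179 (minus), the Ldha window chr7:46845554-46845853 (plus) and the Slc16a3 window chr11:120948817-120949116 (plus).
Hk2: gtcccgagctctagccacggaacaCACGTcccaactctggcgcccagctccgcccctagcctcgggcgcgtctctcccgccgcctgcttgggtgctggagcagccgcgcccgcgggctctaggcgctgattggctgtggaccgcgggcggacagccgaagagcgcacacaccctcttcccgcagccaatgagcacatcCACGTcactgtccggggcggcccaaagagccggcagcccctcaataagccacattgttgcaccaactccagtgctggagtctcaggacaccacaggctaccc
Pfkfb3: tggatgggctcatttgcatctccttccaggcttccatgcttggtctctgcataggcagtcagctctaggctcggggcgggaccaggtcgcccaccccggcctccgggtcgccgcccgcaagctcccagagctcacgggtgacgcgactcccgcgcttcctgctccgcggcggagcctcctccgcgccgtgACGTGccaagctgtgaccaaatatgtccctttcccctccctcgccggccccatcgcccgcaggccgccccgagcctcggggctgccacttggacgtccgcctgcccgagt
Ldha: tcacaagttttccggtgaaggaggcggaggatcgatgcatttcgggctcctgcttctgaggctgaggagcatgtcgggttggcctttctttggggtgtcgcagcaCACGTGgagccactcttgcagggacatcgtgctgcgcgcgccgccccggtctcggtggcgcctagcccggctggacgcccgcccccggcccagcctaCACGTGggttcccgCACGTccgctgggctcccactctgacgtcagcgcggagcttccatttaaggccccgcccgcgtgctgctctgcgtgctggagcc
Slc16a3: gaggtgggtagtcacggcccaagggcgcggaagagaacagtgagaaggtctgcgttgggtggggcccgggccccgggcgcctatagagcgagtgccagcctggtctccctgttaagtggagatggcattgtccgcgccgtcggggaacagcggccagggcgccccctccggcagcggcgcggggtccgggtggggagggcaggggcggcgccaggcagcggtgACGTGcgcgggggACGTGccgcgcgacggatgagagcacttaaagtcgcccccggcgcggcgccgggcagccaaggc

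The core occurred 2 times in the Hk2 window shown, 1 time in that of Pfkfb3, 5 times in that of Ldha and 2 times in that of Slc16a3. Pfkfb3 and Ldha each have another window, not shown, with 2 matches for Pfkfb3 (chr2:11502041-11502340) and 0 for Ldha (chr7:46846832-46847131). In the windows shown the core was present in genes that rose and in genes that fell. Eno2, Pdk1, Ldhb, Gpi1, Tpi1 and Pfkfb4 changed more than Ldha in WT cells, and their windows, not shown, held 0 matches. The table held a window for 33 of the 34 genes, all but Slc2a3. Of these, 22 (66.7%) had the core in at least 1 window, against 5886 of the 27025 genes with a window (21.8%). Counted by window, 25 of 48 (52.1%) held it, against 6447 of 32851 (19.6%). A match describes only the letters of these windows, and which of several starts these cells use was not measured.

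CpG-B changed 27 of the 33 genes in WT cells, 8 upward and 19 downward, in a comparison that called 68.5% of all 20210 features at an adjusted p of 0.05 (limma), 31.2% higher and 37.2% lower. Within several families of isozymes some genes rose and others fell, and 5 genes rose and 12 fell by at least a factor of 2. The median change of the 33 genes was -0.33 (-0.44, -0.57 and -0.30 within slides 1, 2 and 3), beside -0.03 over all features. In bulk RNA, fewer cells of a type and less RNA per cell cannot be told apart. The 3 slides held 1 array of each group, and all 27 called genes kept their sign within each slide. Of 9 neutrophil markers 7 were lower with CpG-B in WT cells, and of 7 macrophage markers 3 were higher and 1 lower, and their part in the changes was not tested. Unstimulated and CpG-B arrays sat at different positions on every slide, so position and treatment cannot be told apart.

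**Figure D1:**
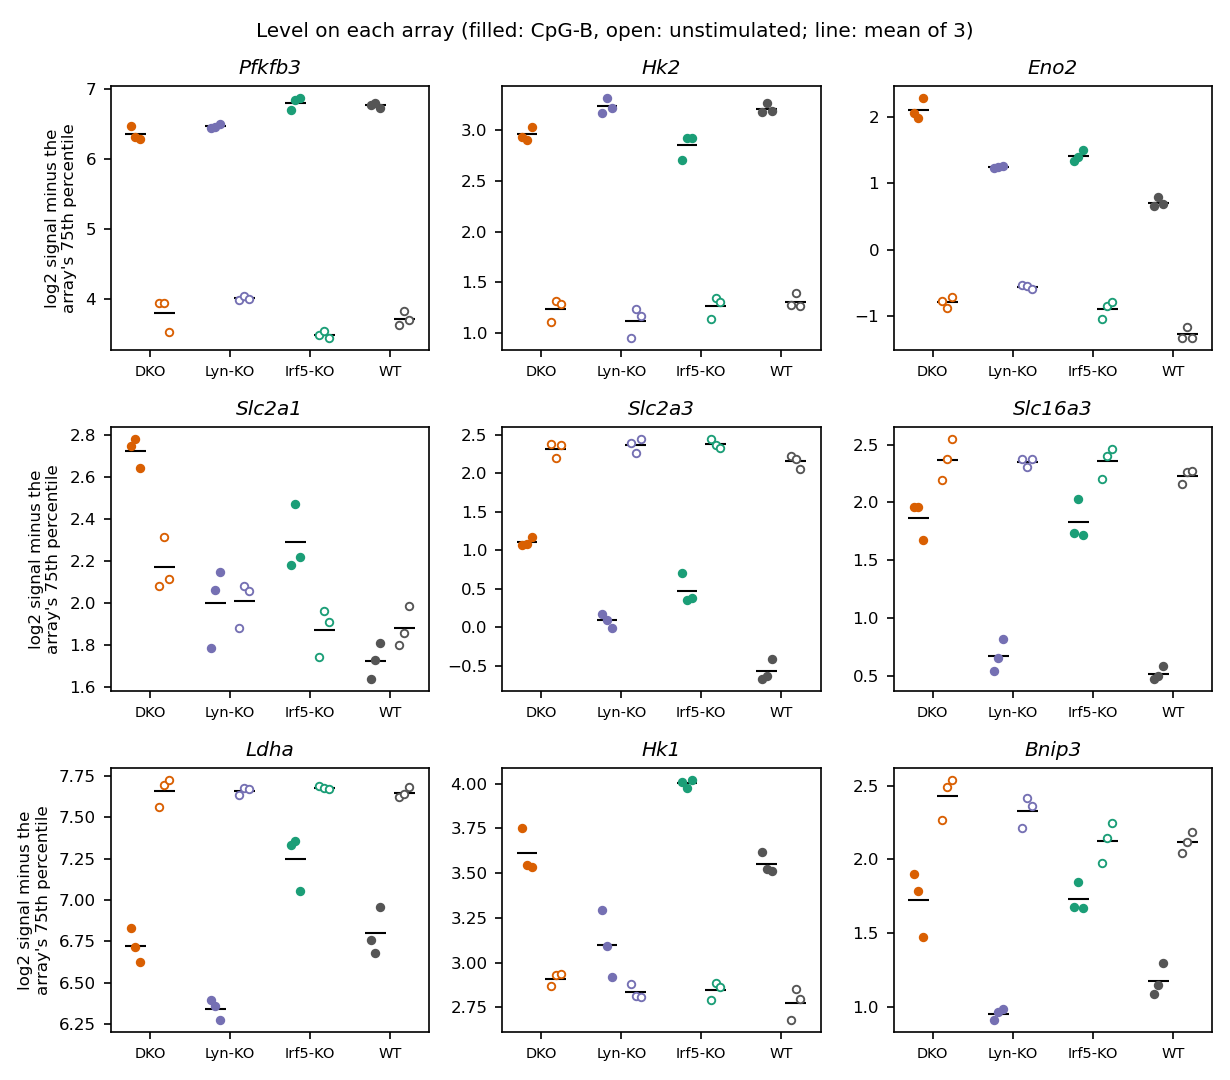
Level on each array (log2 signal minus the 75th percentile of the array) of 9 genes in DKO, Lyn-KO, Irf5-KO and WT cells, with CpG-B (filled) and unstimulated (open), and the mean of 3 arrays as a line. Pfkfb3, Hk2, Eno2 and Hk1 were higher with CpG-B in each genotype, while Slc2a3, Slc16a3, Ldha and Bnip3 were lower, and their levels with CpG-B differed between genotypes.

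Of the glucose transporters, Slc2a3 (GLUT3) fell with CpG-B in WT cells, while no change of Slc2a1 (GLUT1) was called. Slc2a3 had levels of -0.68, -0.63 and -0.41 on the 3 CpG-B arrays, against 2.23, 2.18 and 2.05 on the unstimulated WT arrays, and the groups lay far apart. The change was -2.73 ± 0.09, a 6.61-fold lower signal (adjusted p = 3.84e-15, limma). Slc2a1 had 1.64, 1.73 and 1.81 with CpG-B, against 1.80, 1.86 and 1.99 unstimulated, and these ranges overlapped (-0.16 ± 0.10, adjusted p = 0.18, limma, 95% interval -0.37 to 0.06).

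All 3 hexokinase genes, whose products trap glucose in the cell as glucose 6-phosphate, rose with CpG-B. Hk2 had 3.17, 3.26 and 3.19 with CpG-B, against 1.28, 1.39 and 1.26 unstimulated in WT cells, a 3.73-fold higher signal (1.90 ± 0.08). Hk1 rose by 0.78 ± 0.08 and Hk3 by 1.06 ± 0.26, both with groups that did not overlap. Gpi1, the isomerase of the next step, fell by 1.42 on the log2 scale, with levels of 5.60, 5.47 and 5.71 with CpG-B, against 6.72, 7.11 and 7.22 unstimulated.

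Phosphofructokinase, which commits glucose to glycolysis, has a liver (Pfkl), a muscle (Pfkm) and a platelet (Pfkp) isozyme, and these moved apart. Pfkp rose (0.82 ± 0.11), Pfkm fell (-2.03 ± 0.09), and Pfkl gave -0.01 ± 0.10 (adjusted p = 0.913, limma). Pfkm had -1.91, -2.11 and -1.95 with CpG-B, against -0.13, 0.17 and 0.09 unstimulated, with a wide gap between the groups. A second probe for Pfkp gave 0.22 in WT cells and was not called there, so the size of that rise depends on the probe.

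The bifunctional enzymes that set fructose 2,6-bisphosphate, the activator of phosphofructokinase, moved in opposite directions. Pfkfb3 had 6.78, 6.79 and 6.73 with CpG-B, against 3.63, 3.83 and 3.71 unstimulated in WT cells, which was 8.23-fold higher (3.04 ± 0.09, adjusted p = 4.36e-16, limma). It had the largest rise among the 33 genes in WT, Irf5-KO and Lyn-KO cells. Pfkfb4 had 0.76, 0.66 and 0.78 with CpG-B, against 1.90, 2.05 and 1.92 unstimulated, and fell (-1.22 ± 0.06).

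Among the enzymes of the lower part of glycolysis, both aldolases and the ubiquitous enolase fell while the neuronal enolase rose. Aldoa (aldolase A) gave -0.26 ± 0.06 and Aldoc (aldolase C) -1.74 ± 0.16 in WT cells, and both fell. Tpi1, triosephosphate isomerase, fell by 2.37-fold (-1.25 ± 0.15). Eno1, the ubiquitous form of enolase, had 5.48, 5.37 and 5.54 with CpG-B, against 6.42, 6.27 and 6.37 unstimulated, and fell (-0.89 ± 0.08). Eno2, the form best known from neurons, had 0.65, 0.79 and 0.68 with CpG-B, against -1.34, -1.17 and -1.33 unstimulated, a 3.97-fold higher signal (1.99 ± 0.08).

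Gapdh, Pgam1 and Pkm, which catalyse the steps of glyceraldehyde phosphate, phosphoglycerate and phosphoenolpyruvate, were not called in WT cells. Their changes were -0.12 ± 0.06, -0.11 ± 0.06 and 0.08 ± 0.09. Gapdh, often used as a reference gene, had 7 probes, and tested singly 5 of them were called lower in WT cells, with changes between -0.37 and -0.04. Pgk1, phosphoglycerate kinase, rose slightly (0.18 ± 0.06, adjusted p = 0.0174, limma), but quantile normalisation turned this to -0.06 and normexp background correction to -0.16.

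Genes of lactate formation and export fell. Ldha had 6.76, 6.68 and 6.96 with CpG-B, against 7.62, 7.64 and 7.68 unstimulated in WT cells, and fell 1.80-fold (-0.85 ± 0.08), and all 3 of its probes were called lower. Ldhb, the subunit that favours lactate use, also fell (-1.92 ± 0.12). Slc16a3, the exporter, had 0.47, 0.50 and 0.58 with CpG-B, against 2.16, 2.27 and 2.27 unstimulated, and was 3.28-fold lower (-1.71 ± 0.10, adjusted p = 2.70e-11, limma). Slc16a1 (MCT1), a transporter for lactate and pyruvate in both directions, gave -0.33 ± 0.14, with groups that overlapped and a call that was lost on leaving out any 1 of 11 arrays (-0.45 to -0.19 over all arrays left out in turn).

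The kinases that switch off pyruvate dehydrogenase split as well. Pdk3 had 3.27, 3.20 and 2.98 with CpG-B, against 1.45, 1.76 and 1.46 unstimulated in WT cells, and rose 3.02-fold (1.59 ± 0.08). Pdk1 had -2.26, -2.33 and -1.68 with CpG-B, against -0.24, -0.29 and -0.23 unstimulated, and fell (-1.84 ± 0.34). Pdk2 was not well above background on any WT array with CpG-B and was at least 3.14-fold lower, where its level on each CpG-B array was set to its own signal or to the dimmest signal counted as well above background, whichever was higher. Its levels were -2.28, -2.12 and -2.09 on the unstimulated WT arrays. Pdk2 passed the filter on dim probes only through the unstimulated groups, which fixed its direction, so nothing is read from that direction. Pdha1, the catalytic subunit gene that these kinases act on, fell (-0.74 ± 0.06). Normexp correction brought the fall of Pdk1 to -1.21, still called, and the change of Pdk2 to -0.83.

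Hif1a itself was not called in WT cells (-0.02 ± 0.14, 95% interval -0.32 to 0.27). Bnip3, a mitophagy receptor and known HIF target, fell (-0.94 ± 0.10), with 1.09, 1.15 and 1.30 with CpG-B, against 2.05, 2.12 and 2.19 unstimulated. Of the oxygen-sensing hydroxylase genes, Egln3 fell (-1.48 ± 0.15). Egln1 was not well above background on any WT array with CpG-B and was at least 3.41-fold lower. It passed the filter on dim probes only through the unstimulated groups, which fixed its direction, so nothing is read from that direction. Vegfa, the endothelial growth factor, gave -0.33 ± 0.14, a call lost on leaving out any 1 of 4 WT arrays (-0.41 to -0.23). With normexp correction Egln3 gave -0.82 and was still called, and Egln1 gave -0.93.

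**Figure D2:**
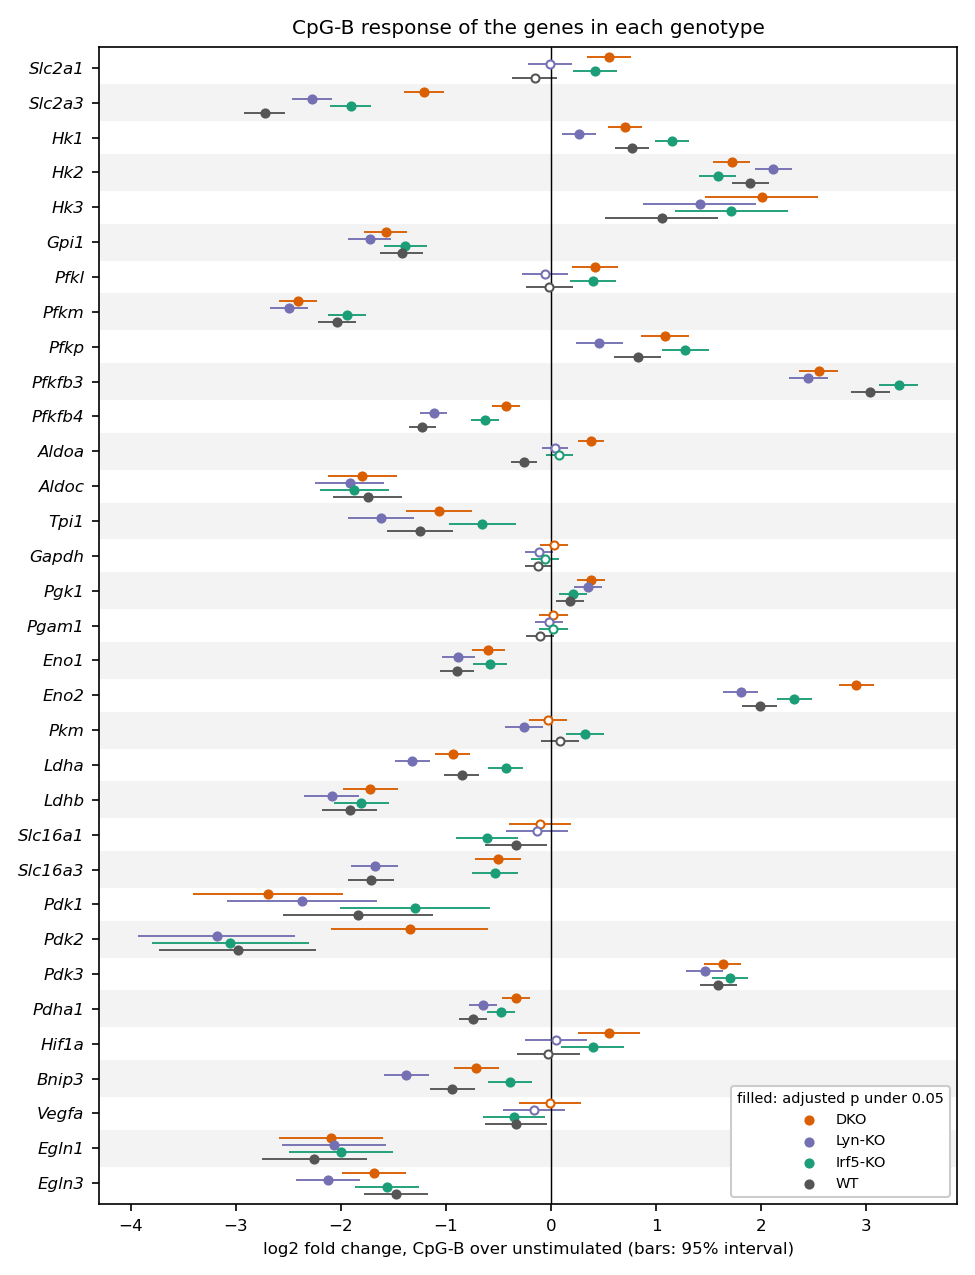
Log2 fold change with CpG-B over unstimulated (x axis, bars 95% intervals) of the 33 genes in DKO, Lyn-KO, Irf5-KO and WT cells, filled where called at an adjusted p under 0.05. Hk2, Pfkfb3, Eno2 and Pdk3 lie to the right and Slc2a3, Pfkm, Aldoc and Ldhb to the left in each genotype, while Slc2a1 and Pfkl are called in DKO and Irf5-KO cells and not in Lyn-KO or WT cells.

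The other 3 genotypes responded to CpG-B with many of the same genes. In DKO cells 12 genes rose and 16 fell (70.5% of all features called, 34.6% higher and 35.9% lower). In Lyn-KO cells 8 rose and 17 fell (68.9% called, 32.8% higher and 36.1% lower), and in Irf5-KO cells 12 rose and 18 fell (66.8% called, 31.6% higher and 35.2% lower). The genes called higher in each of the 4 genotypes were Hk1, Hk2, Hk3, Pfkp, Pfkfb3, Pgk1, Eno2 and Pdk3, where 22.7% of all features were, and Pgk1 reverses in WT and Irf5-KO cells under quantile normalisation or normexp correction. The 16 called lower in each were Slc2a3, Gpi1, Pfkm, Pfkfb4, Aldoc, Tpi1, Eno1, Ldha, Ldhb, Slc16a3, Pdk1, Pdk2, Pdha1, Bnip3, Egln1 and Egln3, where 27.1% of all features were. Pdk2 and Egln1 passed the filter on dim probes only through the unstimulated groups, so the filter fixed their direction with CpG-B in each genotype. Nothing is read from their being in this count or in the counts of genes that fell in each genotype. The median change of the 33 genes was -0.11 in DKO, -0.25 in Lyn-KO, -0.39 in Irf5-KO and -0.33 in WT cells, against 0.02, -0.01, -0.02 and -0.03 over all features.

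Among them, Pfkfb3 rose by 2.55 ± 0.09 in DKO, 2.45 ± 0.09 in Lyn-KO and 3.31 ± 0.09 in Irf5-KO cells. Eno2 rose by 2.91 ± 0.08 in DKO, 1.81 ± 0.08 in Lyn-KO and 2.32 ± 0.08 in Irf5-KO cells. Pdk3 varied little, with 1.63 ± 0.08, 1.46 ± 0.08 and 1.70 ± 0.08 in the same genotypes. The bounds for Egln1, not measured on any CpG-B array, were at least 3.29-fold lower in DKO, at least 4.06-fold in Lyn-KO and at least 3.35-fold in Irf5-KO cells, and those for Pdk2 at least 2.98-fold in Lyn-KO and at least 2.58-fold in Irf5-KO cells. In Irf5-KO cells Pdk1 had -2.40, -2.15 and -0.32 with CpG-B, against -0.28, -0.47 and -0.23 unstimulated, and replicate 3 lay with the unstimulated arrays and apart from the other 2. Its change there was -1.29 ± 0.34 with that array and -1.95 without it.

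A few genes that were not called in WT cells were called elsewhere. Hif1a rose with CpG-B in DKO (0.55 ± 0.14) and Irf5-KO cells (0.40 ± 0.14), the call in Irf5-KO cells being lost on leaving out any 1 of 3 arrays (0.31 to 0.54), and Pfkl rose in DKO (0.42 ± 0.10) and Irf5-KO cells (0.40 ± 0.10). The difference from the WT response was called in DKO cells for both genes, and in Irf5-KO cells it was 0.42 ± 0.20 for Hif1a (adjusted p = 0.209, limma) and 0.41 ± 0.15 for Pfkl (adjusted p = 0.0805, limma). Pkm rose in Irf5-KO cells (0.33 ± 0.09, a call lost under quantile normalisation and normexp correction) and fell in Lyn-KO cells (-0.25 ± 0.09, a call lost on leaving out either of 2 arrays). Aldoa, which fell in WT cells, rose in DKO cells (0.38 ± 0.06), and the difference between these responses was 0.64 ± 0.08.

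Without CpG-B, few of these genes were called between genotypes. Against WT, 3 of the 33 were called in DKO cells (Eno2, Vegfa and Egln3), where 6.78% of all features were called, 3.16% higher and 3.62% lower. In Lyn-KO cells 2 were called (Eno2 and Egln3, with 4.58% of features called, 1.83% higher and 2.75% lower) and in Irf5-KO cells 1 (Eno2, with 0.737% called, 0.317% higher and 0.421% lower). All were higher in the mutant, and these comparisons share the WT arrays. Eno2 had -0.78, -0.88 and -0.71 in DKO, -0.53, -0.56 and -0.60 in Lyn-KO and -1.05, -0.86 and -0.80 in Irf5-KO cells, against -1.34, -1.17 and -1.33 in WT cells, so that no mutant array overlapped with WT. The changes were 0.49 ± 0.08 in DKO, 0.72 ± 0.08 in Lyn-KO and 0.38 ± 0.08 in Irf5-KO cells, and the call in Irf5-KO cells was lost on leaving out any 1 of 4 arrays (0.33 to 0.45 over all arrays left out in turn). Egln3 gave 0.51 ± 0.15 in DKO and 0.65 ± 0.15 in Lyn-KO cells. These calls were lost on leaving out any 1 of 14 arrays in DKO (0.35 to 0.65) and of 2 in Lyn-KO cells (0.56 to 0.73). The other Egln3 probe gave 1.45 in DKO and 0.62 in Lyn-KO cells, so the size in DKO cells depends on the probe. Tested singly, 1 of the 2 probes was called in each comparison. Vegfa gave 0.60 ± 0.14 in DKO cells, a call lost on leaving out either of 2 arrays (0.52 to 0.66). Between DKO and Irf5-KO cells 2 genes were called (Pfkfb3 and Egln3, with 5.35% of features called, 2.48% higher and 2.87% lower), and both calls were lost under at least 1 alternative. Between DKO and Lyn-KO cells 0 were called with limma (0.163% of features called, 0.0891% higher and 0.0742% lower), and 5 of the 33 had an unadjusted p under 0.05. Against WT, 12 had such an unadjusted p in DKO, 7 in Lyn-KO and 4 in Irf5-KO cells, and 6 in DKO against Irf5-KO cells. Median changes against WT were 0.13 in DKO, 0.08 in Lyn-KO and 0.03 in Irf5-KO cells, beside -0.005, 0.01 and -0.02 over all features.

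With CpG-B, cells lacking Irf5 had higher levels of many of the genes on both backgrounds. In Irf5-KO against WT cells 18 genes were called higher and 1 lower (25.5% of all features called, 14.4% higher and 11.1% lower), with a median change of 0.38 beside 0.02 over all features. In DKO against Lyn-KO cells 20 were called higher and 1 lower (31.5% called, 16.8% higher and 14.7% lower), with a median of 0.36 beside 0.01. Within slides 1, 2 and 3 the medians were 0.26, 0.40 and 0.29 in Irf5-KO against WT and 0.44, 0.45 and 0.32 in DKO against Lyn-KO. The 2 comparisons share no array. All 18 genes higher in Irf5-KO were also higher in DKO cells, which is 100% of 18 and 90% of 20. Over all 20210 features, 2034 were called higher in both (10.1%), out of 2914 higher in Irf5-KO and 3405 higher in DKO cells. Another 7.63% were called lower in both. These 18 genes were Slc2a1, Slc2a3, Hk1, Hk3, Pfkl, Pfkp, Pfkfb4, Aldoa, Tpi1, Eno1, Eno2, Pkm, Ldha, Slc16a3, Pdha1, Hif1a, Bnip3 and Vegfa. Of these, 13 kept both calls on leaving out any 1 array, and the others were Eno1, Pkm, Pdha1, Hif1a and Vegfa. All but Tpi1 of these 13 also kept both calls under the 9 alternatives, and Tpi1 lost that in DKO against Lyn-KO cells with normexp correction and with only the compared groups in the fit. Of 10 B lineage markers, 4 were called higher in Irf5-KO than in WT cells, while in DKO against Lyn-KO cells 1 was higher and 2 were lower. The summed level of the 7 macrophage markers was 25.7 to 31.9 in Irf5-KO cells with CpG-B, against 20.4 to 24.2 in WT cells, with 1 marker called higher, and 27.5 to 38.9 in DKO cells, against 23.4 to 25.7 in Lyn-KO cells, with 2 called higher. Of 8 dendritic cell markers 1 was higher and 2 lower in Irf5-KO against WT cells, and 1 higher and 1 lower in DKO against Lyn-KO cells. The part of these cell types was not tested.

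**Figure D3:**
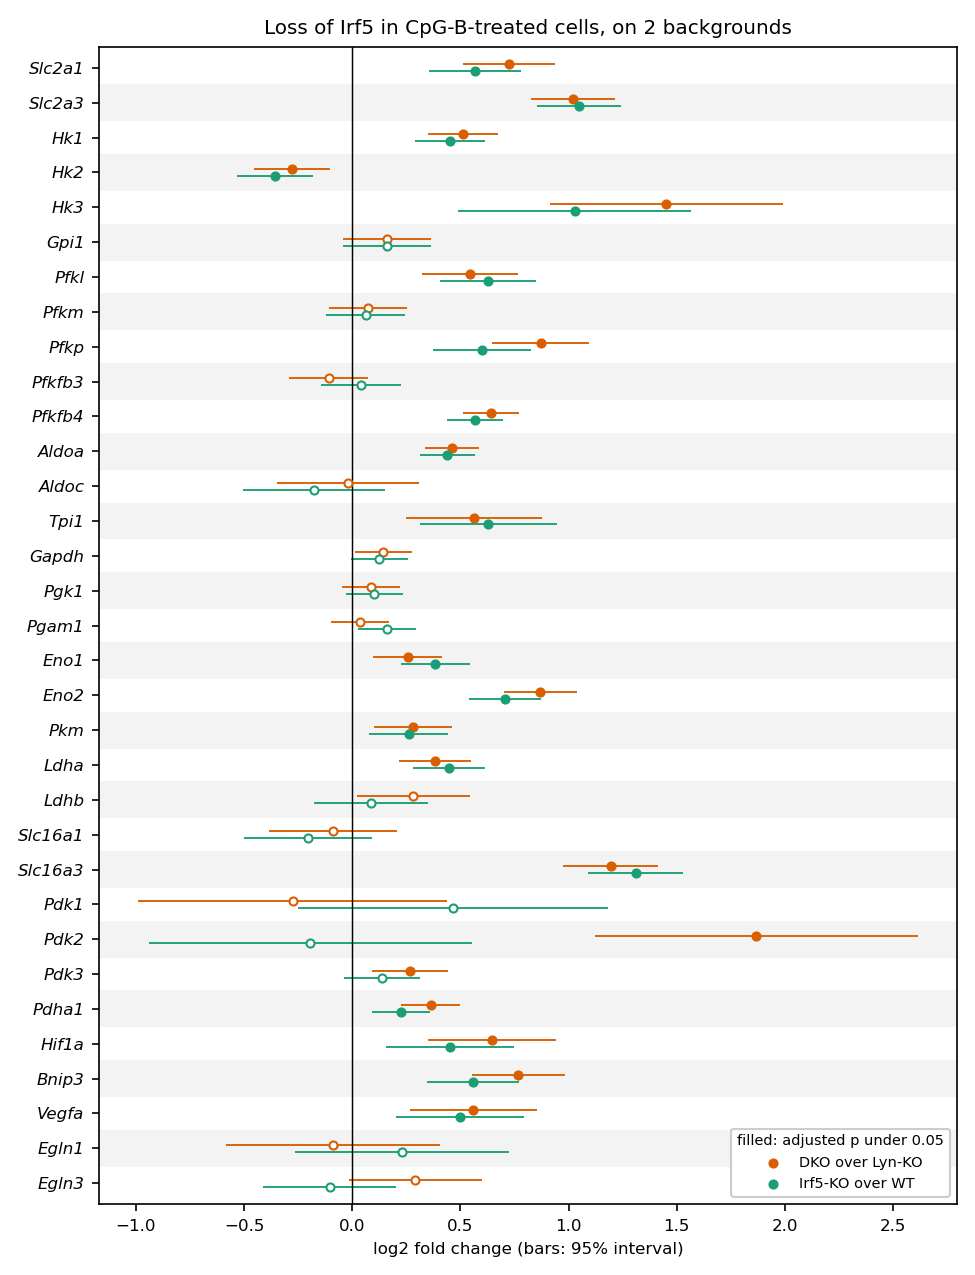
Log2 fold change (x axis, bars 95% intervals) of the 33 genes in CpG-B-treated cells for DKO over Lyn-KO and Irf5-KO over WT, filled where called at an adjusted p under 0.05. Slc16a3, Slc2a3 and Hk3 lie farthest to the right on both backgrounds apart from Pdk2 in DKO cells, and Hk2 lies to the left in both.

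The lactate exporter Slc16a3 was the most raised of the 18 in Irf5-KO cells. With CpG-B it had 1.74, 2.03 and 1.72 in Irf5-KO cells, against 0.47, 0.50 and 0.58 in WT cells, and 1.96, 1.96 and 1.68 in DKO cells, against 0.54, 0.65 and 0.82 in Lyn-KO cells. No array with the Irf5 deletion overlapped with those without it. It was 2.48-fold higher in Irf5-KO than in WT cells (1.31 ± 0.10, adjusted p = 2.90e-08, limma) and 2.29-fold higher in DKO than in Lyn-KO cells (1.20 ± 0.10). Its levels without CpG-B were 2.21, 2.40 and 2.47 in Irf5-KO cells, against 2.16, 2.27 and 2.27 in WT cells (0.13 ± 0.10, adjusted p = 0.785, limma). The fall with CpG-B was smaller in the cells lacking Irf5: -0.50 ± 0.10 in DKO and -0.53 ± 0.10 in Irf5-KO cells, against -1.68 ± 0.10 in Lyn-KO and -1.71 ± 0.10 in WT cells. The difference of the response from WT was 1.18 ± 0.15 in Irf5-KO cells (adjusted p = 1.98e-05, limma) and 1.21 ± 0.15 in DKO cells, while Lyn-KO cells gave 0.03 ± 0.15.

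Both glucose transporters were higher without Irf5. Slc2a3 had 0.70, 0.35 and 0.38 in Irf5-KO cells with CpG-B, against -0.68, -0.63 and -0.41 in WT cells, a 2.07-fold higher signal (1.05 ± 0.09). It had 1.07, 1.09 and 1.17 in DKO cells, against 0.17, 0.10 and -0.01 in Lyn-KO cells (1.02 ± 0.09). In DKO cells it stood 3.21-fold above WT (1.68 ± 0.09). Slc2a1 had 2.19, 2.47 and 2.22 in Irf5-KO cells, against 1.64, 1.73 and 1.81 in WT cells (0.57 ± 0.10), and 2.75, 2.78 and 2.64 in DKO cells, against 1.79, 2.06 and 2.15 in Lyn-KO cells (0.72 ± 0.10). Slc2a1 rose with CpG-B in DKO (0.55 ± 0.10) and Irf5-KO cells (0.42 ± 0.10) and was not called in Lyn-KO (-0.01 ± 0.10) or WT cells, and the response differed from WT by 0.71 ± 0.14 in DKO and 0.58 ± 0.14 in Irf5-KO cells.

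The hexokinases divided. Hk1 was higher in Irf5-KO than in WT cells with CpG-B (0.45 ± 0.08) and in DKO than in Lyn-KO cells (0.51 ± 0.08). Hk3 had 1.49, 1.48 and 1.58 in Irf5-KO cells, against 0.71, 0.56 and 0.20 in WT cells (1.03 ± 0.26), and 2.40, 2.49 and 1.79 in DKO cells, against 0.88, 0.82 and 0.62 in Lyn-KO cells (1.45 ± 0.26). Hk2 was lower, with 2.71, 2.93 and 2.92 in Irf5-KO cells, against 3.17, 3.26 and 3.19 in WT cells (-0.36 ± 0.08), and 2.93, 2.90 and 3.03 in DKO cells, against 3.17, 3.31 and 3.22 in Lyn-KO cells (-0.28 ± 0.08). The lower Hk2 in DKO cells lost its call on leaving out replicate 2 of DKO or replicate 2 of Lyn-KO cells with CpG-B (-0.32 to -0.24 over all arrays left out in turn).

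Of the phosphofructokinase genes, Pfkl and Pfkp were higher without Irf5 and Pfkm was not called. Pfkl gave 0.63 ± 0.10 in Irf5-KO against WT cells and 0.54 ± 0.10 in DKO against Lyn-KO cells, and Pfkp 0.60 ± 0.11 and 0.87 ± 0.11. Both probes of Pfkp were called higher in both pairs. Pfkfb4 had 1.27, 1.30 and 1.34 in Irf5-KO cells, against 0.76, 0.66 and 0.78 in WT cells (0.57 ± 0.06), and gave 0.64 ± 0.06 in DKO against Lyn-KO cells. Pfkfb3 gave 0.04 ± 0.09 (adjusted p = 0.806, limma) and -0.11 ± 0.09 (adjusted p = 0.399, limma) in these pairs.

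In the lower part of the pathway, Aldoa, Tpi1, Eno1, Eno2 and Pkm were called higher without Irf5 on both backgrounds, while Aldoc, Gapdh, Pgk1 and Pgam1 were not called on either. Eno2 was the most raised, with 1.34, 1.40 and 1.51 in Irf5-KO cells, against 0.65, 0.79 and 0.68 in WT cells (0.71 ± 0.08), and 2.07, 1.98 and 2.29 in DKO cells, against 1.23, 1.25 and 1.26 in Lyn-KO cells (0.87 ± 0.08). Tpi1 gave 0.63 ± 0.15 and 0.56 ± 0.15, Aldoa 0.44 ± 0.06 and 0.46 ± 0.06, Eno1 0.38 ± 0.08 and 0.26 ± 0.08, and Pkm 0.26 ± 0.09 and 0.28 ± 0.09. The calls of Pkm were lost in both pairs under quantile normalisation and under normexp correction.

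Ldha had 7.34, 7.36 and 7.05 in Irf5-KO cells with CpG-B, against 6.76, 6.68 and 6.96 in WT cells (0.45 ± 0.08), and 6.83, 6.72 and 6.62 in DKO cells, against 6.40, 6.36 and 6.27 in Lyn-KO cells (0.38 ± 0.08), and all 3 probes were called higher in both pairs. Pdha1 gave 0.23 ± 0.06 and 0.36 ± 0.06. Ldhb and Slc16a1 were not called in either pair. Among the hypoxia genes, Bnip3 gave 0.56 ± 0.10 and 0.77 ± 0.10, and Vegfa 0.50 ± 0.14 and 0.56 ± 0.14. Without CpG-B Vegfa already gave 0.52 and 0.41 in these pairs, neither called, and its other probe 0.37 and 0.13. Its CpG-B response in Irf5-KO cells differed from that in WT by -0.02. Hif1a gave 0.45 ± 0.14 and 0.65 ± 0.14 with CpG-B, while Egln1 and Egln3 were not called. Hif1a had 1.02, 1.43 and 1.48 in Irf5-KO cells, against 0.74, 1.04 and 0.81 in WT cells, ranges that overlapped, and its call there was lost on leaving out any 1 of 4 arrays (0.37 to 0.59 over all arrays left out in turn).

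Of the kinases, Pdk2 and Pdk3 were called higher in DKO than in Lyn-KO cells and not in Irf5-KO than in WT cells. Pdk3 gave 0.27 ± 0.08 in DKO against Lyn-KO cells, a call lost on leaving out any 1 of 3 arrays, under normexp correction and without the filter on dim probes, and 0.14 ± 0.08 in Irf5-KO against WT cells. With CpG-B Pdk2 had -3.89, -2.70 and -3.59 in DKO cells, where 1 of 3 arrays was well above background, and none of the Lyn-KO, Irf5-KO or WT arrays was. As a ratio it was 1.34-fold higher in DKO than in WT cells, 1.20-fold higher than in Irf5-KO and 1.20-fold higher than in Lyn-KO cells. In these ratios the DKO mean takes its 3 signals as measured. Only the group that was not well above background on any array is raised to the dimmest signal counted. Since only 1 of 3 DKO arrays was well above background, the ratios are not lower bounds. The fitted change against WT was 1.75 ± 0.36 (0.35 with normexp correction), and its size was not measured.

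Cells lacking Lyn differed in both directions with CpG-B. In Lyn-KO against WT cells 4 genes were called higher and 5 lower (25.2% of all features called, 13.9% higher and 11.2% lower), with a median change of 0.02 beside 0.05 over all features. In DKO against Irf5-KO cells 10 were higher and 7 lower (33% called, 18.1% higher and 14.9% lower), with a median of 0.08 beside 0.06. With the slide as a block the count in Lyn-KO cells was 7 higher and 7 lower. The pairs Lyn-KO against WT and DKO against Irf5-KO have no array in common. Hk1, Pfkm, Pfkfb3, Pkm and Ldha were lower in both, which is 100% of 5 and 71.4% of 7. Slc2a3, Aldoa and Eno2 were higher in both, which is 75% of 4 and 30% of 10. Over all features, 1650 were lower in both (8.16%), out of 2266 and 3018 called lower. The features higher in both were 1955 (9.67%), out of 2818 and 3659 called higher. In both pairs the B lineage markers were lower, 6 of 10 in Lyn-KO against WT and 10 of 10 in DKO against Irf5-KO cells. Of 8 dendritic cell markers, 5 were higher and 1 lower in Lyn-KO against WT cells, and 5 higher and 0 lower in DKO against Irf5-KO cells. Of 9 neutrophil markers, 1 was higher and 1 lower in the first pair and 2 higher and 5 lower in the second. Of 7 macrophage markers, 0 were higher and 1 lower in the first pair, and 1 higher and 1 lower in the second. The part of these cell types in the differences was not tested.

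**Figure D4:**
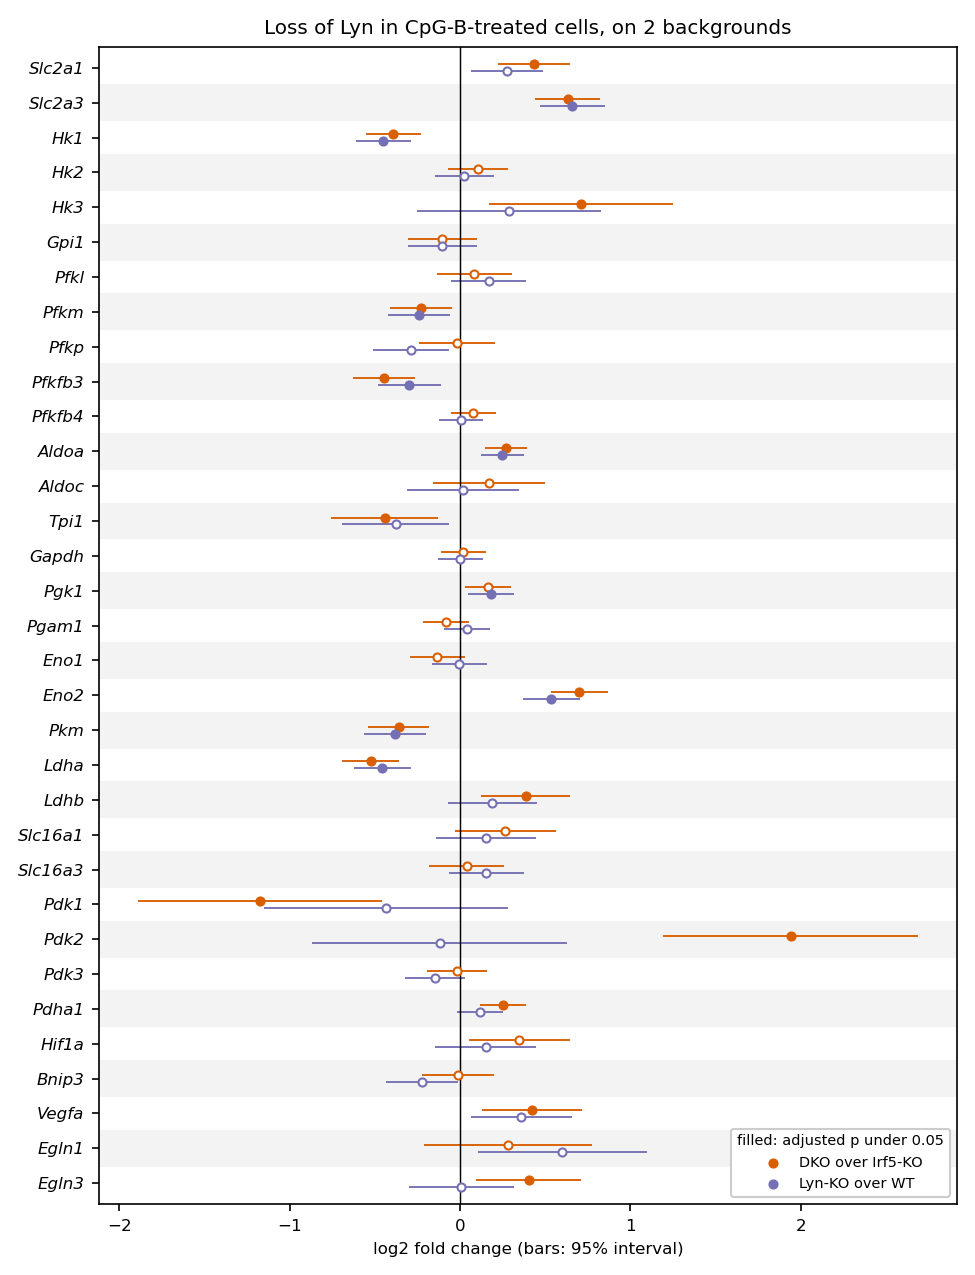
Log2 fold change (x axis, bars 95% intervals) of the 33 genes in CpG-B-treated cells for DKO over Irf5-KO and Lyn-KO over WT, filled where called at an adjusted p under 0.05. Slc2a3 and Eno2 lie to the right and Hk1, Ldha and Pkm to the left on both backgrounds.

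Ldha was 1.37-fold lower in Lyn-KO than in WT cells, with 6.40, 6.36 and 6.27 in Lyn-KO cells, against 6.76, 6.68 and 6.96 in WT cells (-0.46 ± 0.08, adjusted p = 2.64e-04, limma). In DKO against Irf5-KO cells it gave -0.52 ± 0.08. Hk1 had 3.29, 3.09 and 2.92 in Lyn-KO cells, against 3.62, 3.52 and 3.51 in WT cells (-0.45 ± 0.08), and gave -0.39 ± 0.08 in DKO against Irf5-KO cells. Pkm, pyruvate kinase, gave -0.38 ± 0.09 and -0.36 ± 0.09 in the 2 pairs. Hk1, Ldha and Pkm kept both calls on leaving out any 1 array and under each of the 9 alternatives to the fit, whereas Pfkm and Pfkfb3 did not. Tested singly, 1 of the 2 probes of Hk1 was called lower in each pair (-0.39 and -0.25 in DKO against Irf5-KO cells), so that difference depends on the probe. Pfkm lost its calls on leaving out any 1 of 16 arrays in Lyn-KO against WT cells (-0.24 ± 0.09, -0.32 to -0.18) and any 1 of 17 in DKO against Irf5-KO cells (-0.23 ± 0.09, -0.29 to -0.15).

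Pfkfb3, the gene most raised by CpG-B in WT cells, had 6.44, 6.46 and 6.51 in Lyn-KO cells, against 6.78, 6.79 and 6.73 in WT cells (-0.30 ± 0.09), and 6.48, 6.32 and 6.29 in DKO cells, against 6.70, 6.85 and 6.87 in Irf5-KO cells (-0.45 ± 0.09). Without CpG-B it gave 0.29 ± 0.09 in Lyn-KO against WT cells (adjusted p = 0.0664, limma). Its rise with CpG-B differed from that in WT by -0.49 ± 0.12 in DKO and -0.59 ± 0.12 in Lyn-KO cells. It lost its call in Lyn-KO against WT cells on leaving out either of 2 arrays (-0.32 to -0.28). Slc2a3 was 1.58-fold higher in Lyn-KO than in WT cells (0.66 ± 0.09) and 1.55-fold higher in DKO than in Irf5-KO cells (0.63 ± 0.09). Eno2 gave 0.54 ± 0.08 and 0.70 ± 0.08, so Slc2a3 and Eno2 were higher in cells with either deletion. Eno2 was already 0.72 higher in Lyn-KO than in WT cells without CpG-B. Its CpG-B response in Lyn-KO cells was not called different from that in WT. Slc16a3 gave 0.15 ± 0.10 (adjusted p = 0.312, limma) and 0.04 ± 0.10 (adjusted p = 0.819, limma), but its other probe gave 0.42 in Lyn-KO against WT cells and was called higher there.

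The remaining calls without Lyn were made in 1 of the pairs. In Lyn-KO against WT cells Pgk1 was higher (0.18 ± 0.06), a call lost on leaving out any 1 of 7 arrays (0.16 to 0.23) and under quantile normalisation, normexp correction and median scaling. In DKO against Irf5-KO cells Slc2a1 (0.43 ± 0.10) and Pdha1 (0.25 ± 0.06) were higher and kept their calls with each array left out. Hk3, Ldhb, Vegfa and Egln3 were also higher there (0.71 ± 0.26, 0.39 ± 0.12, 0.42 ± 0.14 and 0.40 ± 0.15) and lost their calls on leaving out any 1 of 5, 4, 3 and 4 arrays. Tpi1 was lower (-0.44 ± 0.15), a call lost on leaving out either of 2 arrays (-0.56 to -0.26). Pdk1 was lower (-1.18 ± 0.34), with -2.93, -2.62 and -2.84 in DKO cells, against -2.40, -2.15 and -0.32 in Irf5-KO cells, and gave -0.52 without replicate 3 of Irf5-KO cells.

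In DKO against WT cells with CpG-B, 17 genes were higher and 2 lower (44.8% of all features called, 24.9% higher and 19.9% lower), with a median of 0.30 beside 0.06 over all features. Of 10 B lineage markers 8 were lower in this pair and 0 higher (median -1.75), of 9 neutrophil markers 1 was higher and 5 lower, of 8 dendritic cell markers 4 were higher and 0 lower, and of 7 macrophage markers 2 were higher and 0 lower. Their part was not tested. Slc2a3 was highest in DKO cells, where it had 1.07, 1.09 and 1.17, against 0.17, 0.10 and -0.01 in Lyn-KO, 0.70, 0.35 and 0.38 in Irf5-KO and -0.68, -0.63 and -0.41 in WT cells, with no overlap between these 4 groups. Eno2 followed the same order of DKO above the single mutants above WT, with 2.07, 1.98 and 2.29 in DKO, 1.23, 1.25 and 1.26 in Lyn-KO, 1.34, 1.40 and 1.51 in Irf5-KO and 0.65, 0.79 and 0.68 in WT cells. For Hk1 and Ldha, which were higher without Irf5 and lower without Lyn, DKO cells were not called against WT (0.06 ± 0.08 and -0.08 ± 0.08). The 2 called lower were Hk2 (-0.25 ± 0.08) and Pfkfb3 (-0.41 ± 0.09), and the call of Hk2 was lost on leaving out any 1 of 3 arrays (-0.29 to -0.22).

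The CpG-B response itself differed from that of WT in 13 of the 33 genes in DKO cells, 11 upward and 2 downward (30.5% of all features called, 17.3% higher and 13.2% lower). In Lyn-KO cells it differed in 6, 2 upward and 4 downward (11.1% called, 6.04% higher and 5.02% lower), and in Irf5-KO cells in 8, all upward (12.6% called, 7.48% higher and 5.16% lower). These 3 comparisons share the WT arrays. The 11 include Pdk2, which was well above background on 1 of 3 DKO arrays and no WT array with CpG-B. With the slide as a block the count in Irf5-KO cells was 13, of which 12 were upward.

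Other genes of these pathways, listed for their function, moved in both directions. Of 18 further genes of glucose uptake and glycolysis, 13 were tested, and with CpG-B in WT cells 6 were called higher and 5 lower. Slc2a6 (1.51 ± 0.07), a glucose transporter of myeloid cells, rose, while Slc2a8 (-2.36 ± 0.08), the other transporter gene tested here, fell. Txnip (-2.12 ± 0.09), whose product restrains glucose uptake, also fell. In Irf5-KO against WT cells with CpG-B 2 were higher and 5 lower, with a median of -0.15 beside 0.02 over all features. In DKO against Lyn-KO cells 3 were higher and 3 lower, with a median of -0.01 beside 0.01. Pgam2 (-2.19 ± 0.24 and -2.04 ± 0.24), Adpgk (-0.55 ± 0.08 and -0.65 ± 0.08) and Bpgm (-0.61 ± 0.09 and -0.66 ± 0.09) were lower in both pairs. Slc2a6 (0.35 ± 0.07 and 0.28 ± 0.07) and Eno3 (0.67 ± 0.09 and 0.41 ± 0.09) were higher in both. Of 14 further genes of pyruvate and lactate, 12 were tested, 2 rose and 8 fell in WT cells, and with CpG-B 3 were higher and 2 lower in Irf5-KO against WT cells and 5 higher and 1 lower in DKO against Lyn-KO cells. Slc16a6, a monocarboxylate transporter family member, fell with CpG-B (-1.80 ± 0.09) and was higher without Irf5 (0.52 ± 0.09 in Irf5-KO against WT and 0.90 ± 0.09 in DKO against Lyn-KO cells), as Slc16a3 was.

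Of 24 further HIF pathway genes, 22 were tested. With CpG-B in WT cells 8 were called higher and 9 lower. Adm, which encodes adrenomedullin, rose by 3.70 ± 0.13 and Ndrg1, a stress-responsive gene, by 3.75 ± 0.07, while Ankrd37 (-1.55 ± 0.13), Hilpda (-1.69 ± 0.13) and Bnip3l (-1.76 ± 0.09) fell. Vhl, the ubiquitin ligase subunit that removes HIF-1, fell (-2.04 ± 0.07) and Egln2, the third prolyl hydroxylase gene, rose (1.89 ± 0.06), opposite to Egln3. In Irf5-KO against WT cells with CpG-B 7 were higher and 3 lower, and in DKO against Lyn-KO cells 6 were higher and 3 lower. Ankrd37 was higher in both pairs (1.15 ± 0.13 and 0.59 ± 0.13), as Bhlhe40, a transcriptional repressor, was (0.75 ± 0.08 and 0.76 ± 0.08). Ndrg1 was lower in both (-0.71 ± 0.07 and -0.39 ± 0.07), and so was Cited2, whose product competes with HIF-1 for its coactivator (-0.48 ± 0.09 and -0.34 ± 0.09). All 8 pentose phosphate genes were tested. With CpG-B, 4 were higher and 2 lower in Irf5-KO than in WT cells, while DKO against Lyn-KO cells had 4 higher and 1 lower. G6pdx, whose product opens the pathway, was higher in both pairs (0.41 ± 0.06 and 0.55 ± 0.06), and so was Pgd, which encodes the dehydrogenase of 6-phosphogluconate (0.56 ± 0.09 and 0.93 ± 0.09).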

How the data were processed

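RNA of 24 samples in 8 groups of 3 was measured on 1-colour Agilent arrays of 55681 probes. Per the file headers, the deposited intensity values are processed signals that Feature Extraction 10.7.3.1 made from the scans. The deposited series table holds log2 values that the authors centred on each probe, as a comparison with the scanner signals shows (13388 probes, 95% of differences under 0.0238, array medians -0.27 to 0.38). It served as an alternative.

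Each array's log2 signal was reduced by its 75th percentile. A probe was kept where its spots stood well above background in every replicate of some group (26642 probes), and each gene was represented by its kept probe of highest mean level, giving 20210 features of which 12649 had a gene name. limma 3.58.1 in R 4.3.3 (with version 1.17.8 of data.table) fitted 8 group means, with Benjamini-Hochberg adjustment over all features and a threshold of 0.05. Response differences are interaction terms. The fit was tested on simulated data. The arrays limit the precision: the median residual SD was 0.134 over all features and 0.120 over the genes described.

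The replicate number is the slide number, with 1 array of each group on each of 3 slides, and each group held the same position on every slide, so position and group cannot be told apart. Same-numbered arrays deviated together to a small extent (correlations -0.08 to 0.29 over 84 pairs of arrays, median 0.06, 25 over 0.1). Differently numbered arrays did so less (-0.27 to 0.12 over 168 pairs, median -0.03, 2 over 0.1). The main fit did not use the numbers as pairs, and a slide block served as an alternative. All 33 genes that passed the filter are reported; the other genes named come from fixed lists of further pathway genes and cell type markers, apart from Irf5 and Lyn, named as a check of the labels. The genes and lists were chosen with earlier results of these data known. Alternatives were quantile normalisation, normexp correction with an offset of 50, median scaling, other probe filters, the mean of the probes of a gene, a slide block, fits on the compared groups alone, the series table, each array left out in turn, and, chosen after seeing the data, each probe on its own. Promoter windows came from RefSeq (GRCm38.p6).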

Additional observations from a re-analysis of the deposited data

Results flagged for a closer look

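The change with CpG-B differed between each mutant and WT in the genes below, by an interaction term in limma. The 3 comparisons share the WT arrays, and each value is the log2 change in the mutant minus that in WT.

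In DKO cells the difference was 1.52 for Slc2a3, 0.71 for Slc2a1 and 1.21 for Slc16a3, the transport genes. It was 0.92 for Eno2, 0.79 for Pfkfb4, 0.64 for Aldoa, 0.435 for Pfkl, 0.41 for Pdha1 and 0.30 for Eno1. Pdk2 gave a fitted 1.64, with 1 of 3 DKO arrays and no WT array well above background with CpG-B, so the size of this difference was not measured. Hif1a gave 0.58, and the negative differences were -0.49 for Pfkfb3 and -0.38 for Pfkm. Leaving out any 1 of 15 arrays ended the call of Eno1, and any 1 of 7 that of Pfkl or Hif1a.

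In Lyn-KO cells the difference was 0.45 for Slc2a3 and 0.29 for Aldoa. It was -0.59 for Pfkfb3, -0.51 for Hk1, -0.47 for Ldha and -0.46 for Pfkm. Leaving out any 1 of 7 arrays ended the call of Slc2a3, and likewise that of Aldoa.

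In Irf5-KO cells all differences were positive, at 1.18 for Slc16a3, 0.82 for Slc2a3, 0.60 for Pfkfb4, 0.58 for Slc2a1, 0.55 for Bnip3, 0.42 for Ldha, 0.38 for Hk1 and 0.34 for Aldoa. Leaving out any 1 of 6 arrays ended the call of Hk1.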

How the results depend on the processing

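Of the 230 calls made for single genes over all 17 comparisons, 174 held under each of the 9 alternatives and with each of the 24 arrays left out in turn. At least 1 alternative ended 52, and leaving out at least 1 array ended 41. Both reversals concerned Pgk1 with CpG-B, at -0.073 in Irf5-KO and -0.058 in WT cells under quantile normalisation and -0.046 in Irf5-KO and -0.16 in WT cells under normexp correction. Median scaling moved a comparison by at most 0.0545. Counts of genes called that left the range of 1.5 times the reported count follow, by alternative. Quantile normalisation gave 0 for unstimulated DKO against Irf5-KO cells. Normexp correction gave 1 there, and 0 for unstimulated Irf5-KO against WT cells, and median scaling gave 1 for unstimulated DKO against Irf5-KO cells. Without the filter on dim probes, these 2 comparisons gave 0 each, DKO against Irf5-KO cells with CpG-B gave 11, and the response difference of Lyn-KO cells gave 3. Probes detected on all arrays alone, or the mean of the probes of a gene, gave 1 for unstimulated Lyn-KO against WT and 1 for unstimulated DKO against Irf5-KO cells. With the replicate number as a block, which is also the slide, unstimulated DKO against WT cells gave 5, Lyn-KO against WT cells with CpG-B gave 14, and the response difference of Irf5-KO cells gave 13. Of single calls, 3 were lost under this block. Fitting only the compared groups gave 0 for unstimulated Irf5-KO against WT, 1 for Lyn-KO against WT, 0 for DKO against Irf5-KO, and 10 for DKO against Irf5-KO cells with CpG-B. The cause was not tested.

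Leaving out each array in turn gave ranges of 28 to 28 genes for the response to CpG-B in DKO, 24 to 25 in Lyn-KO, 29 to 30 in Irf5-KO and 25 to 27 in WT cells. For unstimulated cells the ranges were 0 to 1 for Irf5-KO against WT (0 without replicate 1 of WT), 1 to 3 for Lyn-KO against WT (1 without replicate 3 of WT), 1 to 5 for DKO against WT (1 without replicate 1 of WT, 5 without replicate 1 of DKO), 0 to 3 for DKO against Irf5-KO and 0 to 1 for DKO against Lyn-KO cells. With CpG-B they were 16 to 20, 7 to 10 and 17 to 21 for Irf5-KO, Lyn-KO and DKO against WT, 12 to 18 for DKO against Irf5-KO and 18 to 22 for DKO against Lyn-KO cells. For the response differences from WT they were 7 to 11 in Irf5-KO, 3 to 8 in Lyn-KO (3 without unstimulated WT replicate 1) and 9 to 14 in DKO cells. Normexp correction reduced the changes of Pdk1, Pdk2, Egln1 and Egln3 in WT cells by more than 1.5 times, and of these Pdk2, Egln1 and Egln3 were not well above background on all arrays.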
